A study of Mus musculus with 6 samples.

Results

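The genes described here encode the collagens, the laminin chains, the nidogens, perlecan and agrin, the proteins that build basement membranes and fibrous matrix. They were taken by name from the deposited gene table as all protein-coding genes called Col followed by a number, a and a number, all Lama, Lamb and Lamc genes, Nid1, Nid2, Hspg2 and Agrn. That gave 59 of 54556 genes, which were separated into 23 basement membrane genes, 11 fibrillar collagens and 25 other collagens. Islet RNA was sequenced in 6 libraries; all mice were C57BL/6, fed normal chow and 8 weeks old. The 3 libraries labelled BKO came from mice homozygous for a floxed Mettl3 allele that also carried RIP-Cre, a Cre recombinase under a rat insulin promoter, and the 3 libraries labelled FF came from mice with the floxed allele alone. Both groups therefore carry the floxed allele, no library has Cre alone, and pooling of islets across mice is not described.

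Values are FPKM, which are scaled for gene length and library size, so levels of different genes are compared per length. The libraries held 16398862 to 18387313 reads, as recovered from the table. Mettl3, the m6A methyltransferase gene that the label calls deleted in β cells, had 4.06, 4.201 and 4.15 FPKM in libraries labelled BKO, against 3.42, 2.89 and 3.93 FPKM in libraries labelled FF (limma adjusted p = 0.12). It was therefore not lower where it is labelled as deleted, reads summed over a gene cannot show the loss of some exons, and every direction below is that of libraries labelled BKO against libraries labelled FF. Ins1, a β-cell insulin gene, stood at 20543 to 21593 FPKM in libraries labelled BKO and at 66994 to 78034 FPKM in libraries labelled FF. The libraries of a group are not tied to named animals, so their spread, on which each p-value rests, may be partly technical.

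A basement membrane is a thin sheet of matrix under epithelia and around vessels. It is built from a laminin network and a type IV collagen network that nidogens and perlecan link together. In islets the endothelial cells of the capillaries are known as a main source of the basement membrane that β cells touch. Fibrillar collagens form the banded fibrils of connective tissue and come chiefly from fibroblasts and stellate cells. In bulk RNA of islets, fewer cells of a type and less RNA per cell cannot be told apart.

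Basement membrane genes were mostly lower in the libraries labelled BKO, while the main fibrillar collagens were higher. Of the 23 basement membrane genes, 16 reached a mean of 1 FPKM and were tested. Of these 11 fell, 1 rose and 4 did not pass (limma on log2(FPKM + 0.5), adjusted p under 0.05), with a median log2 difference of -0.63. Over all 14497 genes tested, 17.2% fell and 16.9% rose, or 34.0% in either direction, with a median of -0.0045. Of the 11 fibrillar collagens 5 were tested, of which 3 rose, 1 fell and 1 did not pass, with a median of 0.48. Of the 25 other collagens 9 were tested, of which 2 rose, 4 fell and 3 did not pass, with a median of 0.13. With no filter on low values all 59 genes entered the fit, and the counts became 8 lower and 1 higher of 23, 1 lower and 2 higher of 11, and 4 lower and 4 higher of 25, against 5.91% lower and 7.25% higher over all 32456 genes. Leaving out 1 library moved the 11 falls to 7 (without FF replicate 3), the 3 fibrillar rises to 1 and the 2 rises of other collagens to 1 (both without BKO replicate 3). Over all genes tested, 1632 fell without FF replicate 3 and 1370 rose without BKO replicate 3, against 2489 and 2446 with all libraries. Without BKO replicates 2 and 3 together, 1 library stands against 3, and the spread comes from the libraries labelled FF alone. The log2 differences in that fit were -0.93 for Col4a1, -1.18 for Lama4, 1.00 for Col1a1 and 0.45 for Col3a1. Whether the classes differ from each other was not tested.

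**Figure D1:**
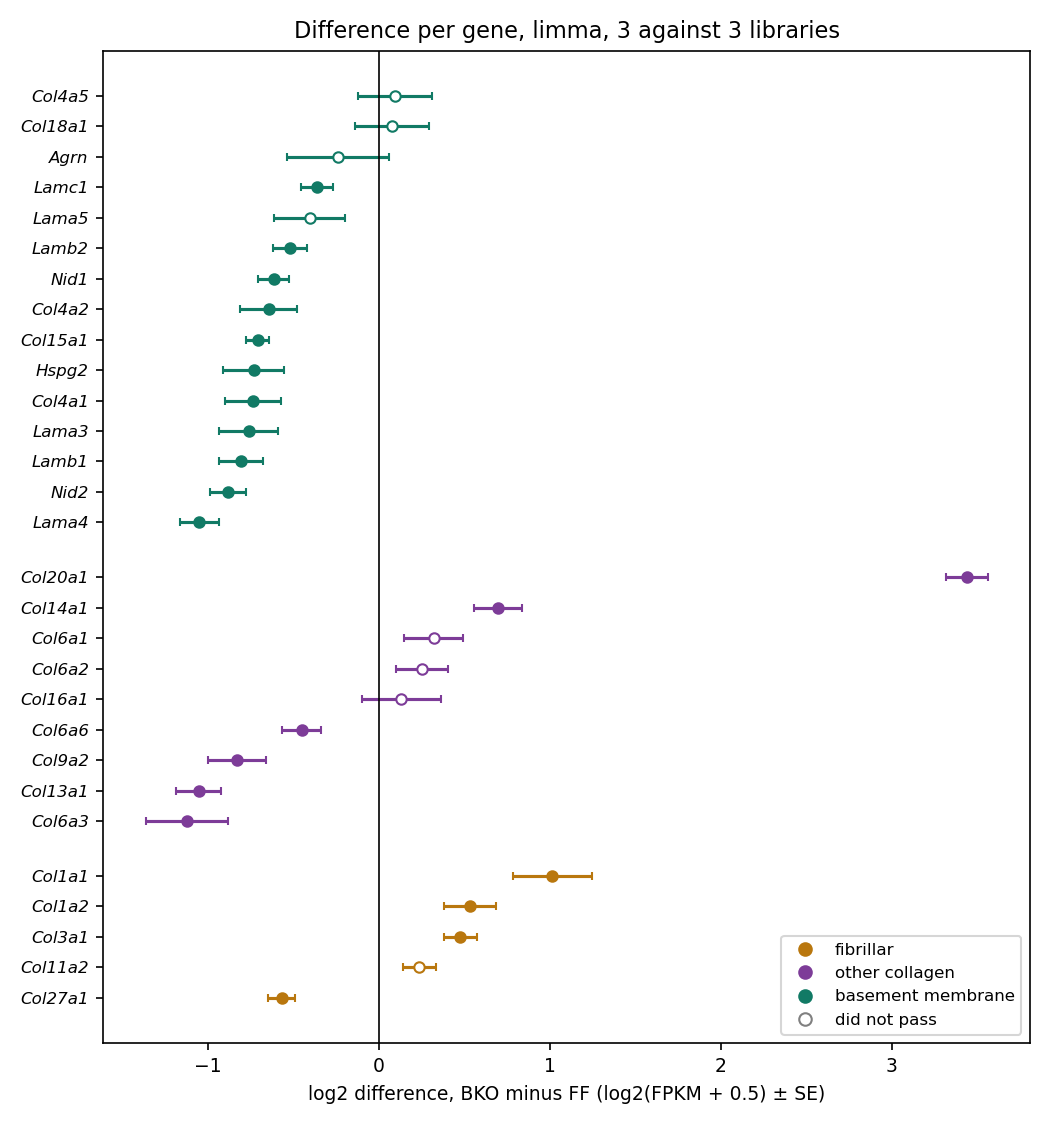
Log2 difference per gene, libraries labelled BKO minus libraries labelled FF, for 29 genes with a mean of at least 1 FPKM, by class; points are limma estimates on log2(FPKM + 0.5), bars are standard errors, and open points did not pass an adjusted p of 0.05. Most basement membrane genes lie left of 0, down to -1.05 for Lama4, and Col20a1 lies far to the right at 3.44.

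Summed over each class, the basement membrane genes came to 110.6, 145.9 and 125.9 FPKM in libraries labelled BKO, against 171.2, 224.3 and 197.5 FPKM in libraries labelled FF. The fibrillar collagens came to 22.3, 22.2 and 22.8 FPKM in libraries labelled BKO, against 17.2, 20.8 and 18.03 FPKM in libraries labelled FF. Neither pair of groups overlapped, and the fibrillar share of the 2 sums was 13.2% to 16.8% in libraries labelled BKO and 8.37% to 9.15% in libraries labelled FF. The deposited FPKM carry a scaling that sets the typical gene to no change. When each library was instead scaled to its own reads (own-read scaling), the median gene shifted by 0.36 on the log2 scale, and the rescaled basement membrane sums overlapped, at 125.4 to 170.6 in libraries labelled BKO and 146.4 to 197.6 in libraries labelled FF. In that scaling 4 basement membrane genes fell and 1 rose, against 4.86% lower and 52.4% higher over all genes, or 57.2% in either direction. The 4 that fell were Lama4 (-0.71), Nid2 (-0.50), Lamb1 (-0.44) and Col15a1 (-0.32), and the calls of Col4a1, Col4a2, Hspg2, Nid1, Lama3, Lamb2 and Lamc1 were lost.

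Type IV collagen is the network-forming collagen of basement membranes, and its chains Col4a1 and Col4a2 assemble in the common form of the trimer. Col4a1 was the most abundant basement membrane gene, at 24.97, 33.9 and 27.8 FPKM in libraries labelled BKO, against 40.1, 58.2 and 47.3 FPKM in libraries labelled FF. Col4a2 had 19.8, 28.2 and 22.6 FPKM in libraries labelled BKO, against 31.6, 44.2 and 35.3 FPKM in libraries labelled FF. For both genes the groups did not overlap, although the gap was small for Col4a2, and replicate 2 was the highest library of each group. Col4a1 fell by 0.73 ± 0.16 on the log2 scale (SE, limma adjusted p = 0.0157) and Col4a2 by 0.64 ± 0.17 (adjusted p = 0.0257). Without BKO replicate 3 the call of Col4a1 was lost (adjusted p = 0.0588), and that of Col4a2 was lost without BKO replicate 1 or 3 or FF replicate 2 or 3 (adjusted p = 0.0632, 0.0832, 0.0624 and 0.0648). With own-read scaling the differences were -0.33 and -0.24 (adjusted p = 0.142 and 0.268), against the median shift of 0.36. 

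Col4a1 (ENSMUSG00000031502) is on chromosome 8 at 11198423 to 11312826, minus strand, and Col4a2 (ENSMUSG00000031503) at 11312805 to 11449287, plus strand (GRCm38), so their annotated 5′ ends face each other and overlap by 22 bases. The Col4a1 to Col4a2 ratio of FPKM was 1.26, 1.20 and 1.23 in libraries labelled BKO, against 1.27, 1.32 and 1.34 in libraries labelled FF. The ratio was thus lower in each library labelled BKO than in any labelled FF, by a small margin, while the Col4a1 level ranged from 24.97 to 58.2 FPKM over the libraries. The antisense gene Gm15418 overlaps the annotated 3′ end of Col4a1, and whether reads were counted by strand is not given in the sources used here.

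The other type IV chains were far lower. Col4a5, a chain of the kidney-type network, had 1.14, 1.39 and 1.19 FPKM in libraries labelled BKO, against 0.817, 1.59 and 1.06 FPKM in libraries labelled FF, and its log2 difference of 0.10 ± 0.22 did not pass (adjusted p = 0.764). Col4a3 and Col4a4, its partner chains, were below the filter, at 0.451 to 0.561 and 0.357 to 0.617 FPKM in libraries labelled BKO and at 0.683 to 0.919 and 0.607 to 0.85 FPKM in libraries labelled FF. Col4a6 had 4 reads over the libraries labelled BKO and 10 over the libraries labelled FF. Col4a3 and Col4a4 are also head to head, with only 71 bases between their annotated starts. That stretch is shown because both genes are read outward from it. It is at chr1:82586850-82586920 (GRCm38.p6, plus strand, from RefSeq), with 69.0% G and C, and holds none of the motifs named further below.
Col4a4 to Col4a3 gap: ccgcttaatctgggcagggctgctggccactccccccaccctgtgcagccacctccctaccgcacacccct

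Laminins are trimers of an α, a β and a γ chain. Laminin α4, from Lama4, and α5, from Lama5, are the α chains known from vessel basement membranes. Lama4 showed the largest fall of the tested basement membrane genes, at 1.48, 1.95 and 1.61 FPKM in libraries labelled BKO, against 3.99, 4.28 and 3.73 FPKM in libraries labelled FF. It fell by 1.05 ± 0.11 on the log2 scale (SE, limma adjusted p = 0.00123), and the call held in all 6 fits lacking 1 library. Lama5 had 3.30, 4.93 and 3.72 FPKM in libraries labelled BKO, against 4.005, 6.87 and 5.58 FPKM in libraries labelled FF. Those groups overlapped, and the log2 difference of -0.40 ± 0.21 did not pass (adjusted p = 0.179). With the replicate number as a block it did, at an adjusted p of 0.0306. The Lama4 to Lama5 ratio was 0.448, 0.396 and 0.434 in libraries labelled BKO, against 0.997, 0.622 and 0.669 in libraries labelled FF.

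Lama3, the α chain of epithelial laminin-332, had 1.71, 2.95 and 2.47 FPKM in libraries labelled BKO, against 3.88, 4.37 and 4.68 FPKM in libraries labelled FF. It fell by 0.76 ± 0.17 (adjusted p = 0.0163), a call lost without FF replicate 3 (adjusted p = 0.0589) and with own-read scaling (-0.41, adjusted p = 0.0972). Lamb3, the β chain of the same trimer, was below the filter, at 0.421, 0.557 and 0.518 FPKM in libraries labelled BKO, against 0.11, 0.408 and 0.143 FPKM in libraries labelled FF. The groups of Lamb3 did not overlap, and its difference of 0.49 did not pass in the fit with no filter (adjusted p = 0.174). G0s2 and Hsd11b1 lie within Lamb3 on the opposite strand.

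The widely used β and γ chains were lower. Lamb1 had 2.84, 4.03 and 3.27 FPKM in libraries labelled BKO, against 5.79, 6.78 and 6.14 FPKM in libraries labelled FF, a fall of 0.81 ± 0.13 (adjusted p = 0.00455). Lamb2 had 5.64, 6.47 and 6.81 FPKM in libraries labelled BKO, against 8.52, 10.3 and 8.96 FPKM in libraries labelled FF, a fall of 0.52 ± 0.10 (adjusted p = 0.0100). Both calls held whichever library was left out, and with own-read scaling that of Lamb2 was lost at -0.14 (adjusted p = 0.322). Lamc1, the most abundant laminin gene, had 7.68, 8.18 and 8.98 FPKM in libraries labelled BKO, against 10.9, 9.71 and 11.8 FPKM in libraries labelled FF. Its fall of 0.36 ± 0.10 (adjusted p = 0.0278) was lost without BKO replicate 1 or 2 or FF replicate 1 or 3 (adjusted p = 0.0727, 0.0685, 0.076 and 0.0876), and with own-read scaling it was 0.02 (adjusted p = 0.851). The other laminin genes were low. Lama2 of muscle and nerve had 0.452 to 0.484 FPKM in libraries labelled BKO and 0.368 to 0.534 FPKM in libraries labelled FF, and Lamc3 had 0.356 to 0.535 FPKM in libraries labelled BKO and 0.152 to 0.398 FPKM in libraries labelled FF. Lama1, a chain of the embryo, had 22 reads over the libraries labelled BKO and 10 over the libraries labelled FF.

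The chain makeup differed between the groups as well. Lama4 made up 18.9% to 21.1% of the summed α-chain FPKM in libraries labelled BKO and 25.9% to 32.5% in libraries labelled FF. Lama5 made up 44.7% to 47.6% in libraries labelled BKO and 32.6% to 42.8% in libraries labelled FF. Lamb1 made up 30.8% to 36.4% of the summed β-chain FPKM in libraries labelled BKO and 38.8% to 40.3% in libraries labelled FF. For these 3 shares the groups did not overlap, which was so for 50.5% of single genes tested, and with 3 against 3 libraries an exact two-sided permutation test cannot go below p = 0.10. A share within a chain type does not depend on how libraries are scaled.

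**Figure D2:**
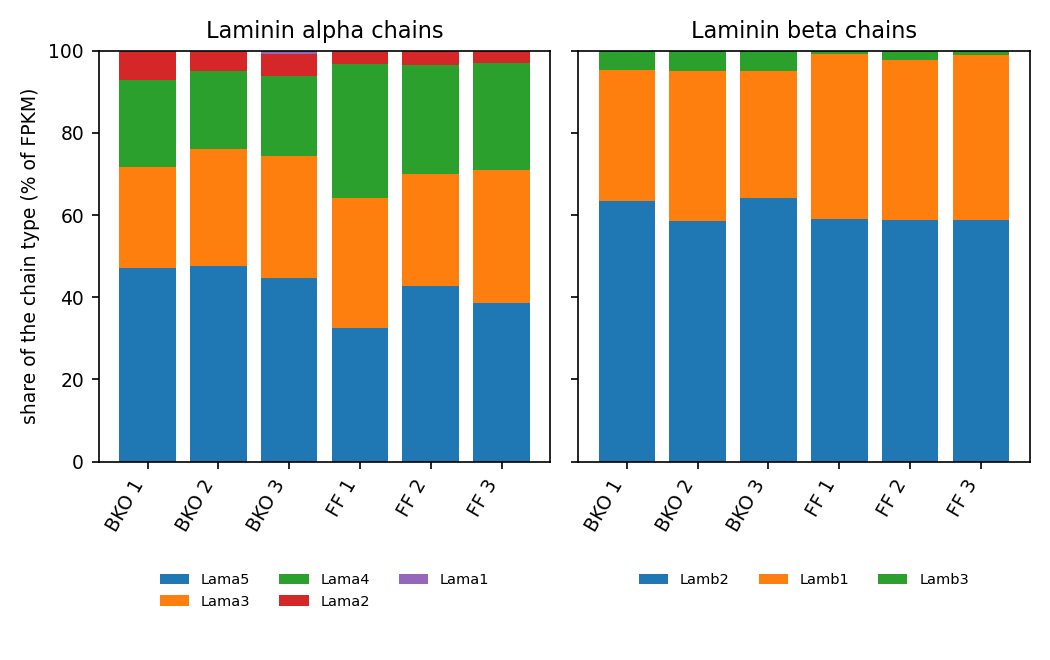
Share of each laminin α and β chain in the summed FPKM of its chain type, in % per library, with the 3 libraries labelled BKO left of the 3 labelled FF. The Lama4 and Lamb1 shares are smaller and the Lama5 share is larger in each library labelled BKO than in any labelled FF.

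Nidogens are glycoproteins that bridge the laminin and type IV collagen networks. Nid1 had 7.30, 7.58 and 6.88 FPKM in libraries labelled BKO, against 10.1, 11.7 and 12.4 FPKM in libraries labelled FF, and fell by 0.62 ± 0.09 (SE, adjusted p = 0.0037). Nid2 had 4.09, 4.87 and 4.33 FPKM in libraries labelled BKO, against 7.49, 9.08 and 9.19 FPKM in libraries labelled FF, and fell by 0.88 ± 0.11 (adjusted p = 0.00169). Both calls held whichever library was left out, and with own-read scaling that of Nid1 was lost at -0.23 (adjusted p = 0.0871). The Nid1 to Nid2 ratio was 1.79, 1.56 and 1.59 in libraries labelled BKO, against 1.35, 1.29 and 1.35 in libraries labelled FF, so the smaller share of Nid2 was seen in every library labelled BKO. The end of Nid2 overlaps Rtraf on the opposite strand by 437 bases.

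Perlecan, from Hspg2, and agrin, from Agrn, are the heparan sulfate proteoglycans of basement membranes. Hspg2 had 8.99, 14.4 and 11.999 FPKM in libraries labelled BKO, against 16.9, 22.3 and 19.9 FPKM in libraries labelled FF. It fell by 0.73 ± 0.18 (adjusted p = 0.0217), a call lost without BKO replicate 3 or FF replicate 2 or 3 (adjusted p = 0.0627, 0.0656 and 0.0664) and with own-read scaling (-0.34, adjusted p = 0.169). Agrn had 5.55, 9.69 and 6.99 FPKM in libraries labelled BKO, against 5.65, 12.4 and 9.02 FPKM in libraries labelled FF. The replicates of Agrn spread more widely than the group means differed. Its log2 difference of -0.24 ± 0.30 did not pass (adjusted p = 0.577) and turned to 0.02 without FF replicate 2. Col15a1 and Col18a1 encode the multiplexins, collagens that carry proteoglycan chains at basement membranes. Col15a1 had 8.99, 10.0 and 9.93 FPKM in libraries labelled BKO, against 16.3, 15.6 and 16.4 FPKM in libraries labelled FF. It fell by 0.71 ± 0.07 (adjusted p = 0.000836), the smallest p among the basement membrane genes. Col18a1, the source of endostatin, had 1.37, 1.74 and 1.56 FPKM in libraries labelled BKO, against 1.04, 2.09 and 1.33 FPKM in libraries labelled FF, and its difference of 0.08 ± 0.22 did not pass (adjusted p = 0.812). Slc19a1, which rose by 0.92 ± 0.13, overlaps Col18a1 by 8825 bases on the opposite strand.

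**Figure D3:**
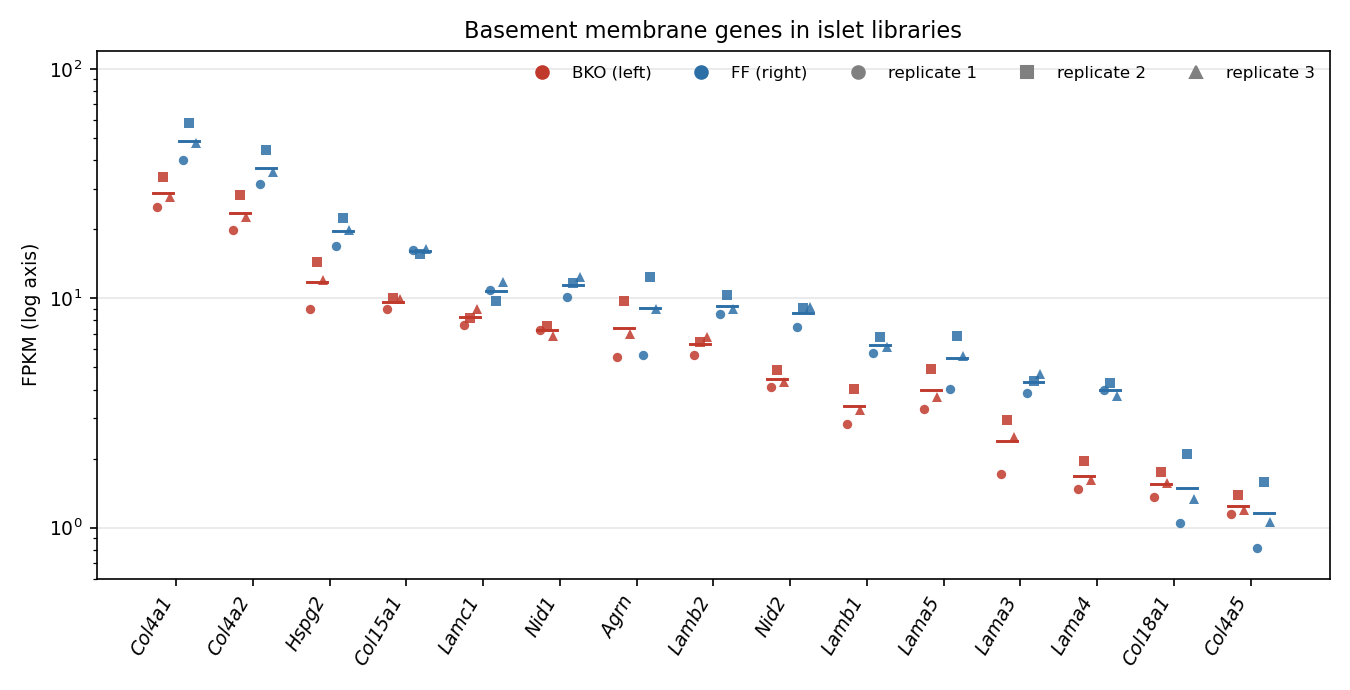
FPKM on a log axis of 15 tested basement membrane genes; red marks on the left are libraries labelled BKO, blue marks on the right are libraries labelled FF, shapes give the replicate and short lines the group means. For 11 genes all libraries labelled BKO lie below all labelled FF, as did 25.4% of all genes tested.

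In 9 of the 16 tested basement membrane genes replicate 2 was the highest library of both groups, which was so for 15.9% of all genes tested. These were Col4a1, Col4a2, Col4a5, Col18a1, Hspg2, Agrn, Lama4, Lama5 and Lamb1. FF replicate 2 also had the most acinar marker signal, 1984 FPKM summed over 10 genes against 651.7 and 1058 in the other FF libraries, and BKO replicate 2 the least, 300.04 against 564.3 and 412.5 in the other BKO libraries. Enterocyte and B-cell markers, given with the fibrillar collagens, were highest in BKO replicate 2 but lowest in FF replicate 2. None of these lists was therefore highest in replicate 2 of both groups. The summed markers of endothelial cells, of stellate cells, fibroblasts and pericytes, of smooth muscle, of ducts and of mesothelium were. The part of these cells in the library order was not tested.

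Most endothelial markers were also lower in libraries labelled BKO. All 14 tested endothelial markers fell, with a median log2 difference of -0.77, against 17.2% lower and a median of -0.0045 over all genes tested. This list is given in the deposited scaling only. The 2 genes of the list below the filter lay the other way without overlap, Vwf at 1.21 to 1.41 FPKM in libraries labelled BKO and 0.370 to 0.909 FPKM in libraries labelled FF, and Cldn5 at 0.750 to 1.36 FPKM in libraries labelled BKO and 0.0467 to 0.734 FPKM in libraries labelled FF. The 16 listed genes came to 384.3, 428.7 and 377.8 FPKM in libraries labelled BKO, against 705.1, 748.4 and 729.2 FPKM in libraries labelled FF. Plvap and Esm1 made up most of these sums, at means of 153 and 70.7 FPKM in libraries labelled BKO and 260 and 175 FPKM in libraries labelled FF. The tested falls ran from 0.49 for Pecam1 to 1.30 for Esm1. Values set against the sum thus lean on Plvap and Esm1 and are not levels per cell. Per 100 FPKM of these markers, Col4a1 stood at 6.50, 7.90 and 7.35 in libraries labelled BKO and at 5.69, 7.78 and 6.49 in libraries labelled FF, so the groups overlapped. They overlapped likewise for Col4a2, Hspg2, Nid2, Lamb1, Lama5 and Col13a1. Lama4 stood at 0.385, 0.455 and 0.427 in libraries labelled BKO, below the 0.566, 0.572 and 0.512 in libraries labelled FF. Lamc1, Nid1 and Col15a1 stood above, with Lamc1 at 1.91 to 2.38 per 100 FPKM in libraries labelled BKO and 1.30 to 1.62 in libraries labelled FF. Acinar markers were lower too in the deposited scaling. Of 9 tested, 7 fell, 0 rose and 2 did not pass, with a median of -1.50, against 17.2% lower over all genes tested. The part of endothelial or acinar cells in the lower basement membrane levels was not tested.

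The RefSeq promoter set used here held an entry for 43 of the 59 genes. Upstream sequences of Nid1 and Hspg2 are shown as examples of genes that fell with the basement membrane group, cut where the first annotated exon begins. Both strands were searched for the GC box, spelled GGGCGG, for CCAAT, the box of that name, for the TATA box, spelled TATAAA, and for the ETS core, spelled CCGGAA. Capitals mark a match on either strand, and no matches overlap here. Nid1 is shown from chr13:13437352-13437550 and Hspg2 from chr4:137468553-137468768 (GRCm38.p6, both plus strand).
Nid1: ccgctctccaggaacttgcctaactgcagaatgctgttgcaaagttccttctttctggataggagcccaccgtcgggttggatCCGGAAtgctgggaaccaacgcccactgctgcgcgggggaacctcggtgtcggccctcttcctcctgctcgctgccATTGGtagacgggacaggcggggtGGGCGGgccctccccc
Hspg2: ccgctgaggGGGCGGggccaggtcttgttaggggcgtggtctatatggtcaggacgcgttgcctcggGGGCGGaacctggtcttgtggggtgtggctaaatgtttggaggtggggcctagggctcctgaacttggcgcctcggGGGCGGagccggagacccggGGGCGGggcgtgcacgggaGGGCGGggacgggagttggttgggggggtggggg
The Nid1 stretch of 199 bases held 1 GC box, 1 CCAAT box and 1 ETS core, which were found in 24.4%, 28.2% and 7.96% of stretches of that length at 32817 promoters. The Hspg2 stretch of 216 bases held 5 GC boxes and none of the others, and 27.9% of such stretches held a GC box. These matches describe the letters of the windows.

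Type I and type III collagen, from Col1a1, Col1a2 and Col3a1, are the main fibrillar collagens of connective tissue. Col1a1 had 2.95, 2.84 and 3.20 FPKM in libraries labelled BKO, against 0.735, 1.81 and 1.30 FPKM in libraries labelled FF. It rose by 1.02 ± 0.23 on the log2 scale (SE, limma adjusted p = 0.0166), a call lost without BKO replicate 3 (adjusted p = 0.0654). Col1a2 had 3.00, 2.99 and 2.96 FPKM in libraries labelled BKO, against 1.51, 2.45 and 1.85 FPKM in libraries labelled FF. It rose by 0.54 ± 0.15 (adjusted p = 0.0352), and among fits lacking 1 library only the fit without FF replicate 2 kept the call, with adjusted p of 0.075 to 0.101 without FF replicate 1 or 3 or any library labelled BKO. The libraries labelled BKO were close together for both genes, and the libraries labelled FF spread widely.

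Col3a1 had 5.69, 5.94 and 5.77 FPKM in libraries labelled BKO, against 3.51, 4.47 and 4.14 FPKM in libraries labelled FF. It rose by 0.48 ± 0.10 (adjusted p = 0.0107), and the call held whichever library was left out. The Col1a1 to Col1a2 ratio was 0.981, 0.948 and 1.08 in libraries labelled BKO, against 0.488, 0.742 and 0.703 in libraries labelled FF, so the ratio was higher in all libraries labelled BKO. With only libraries labelled FF and BKO replicate 1, none of the 3 rises passed (adjusted p = 0.192 to 0.278), at log2 differences of 1.00 for Col1a1, 0.54 for Col1a2 and 0.45 for Col3a1. With own-read scaling Col1a2 rose by 0.87 and Col3a1 by 0.85.

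The Col3a1 upstream stretch is shown because the call of this gene held whichever library was left out. It is chr1:45311288-45311537 (GRCm38.p6, plus strand) and held 1 TATA box, a motif in 12.4% of all stretches of 250 bases.
Col3a1: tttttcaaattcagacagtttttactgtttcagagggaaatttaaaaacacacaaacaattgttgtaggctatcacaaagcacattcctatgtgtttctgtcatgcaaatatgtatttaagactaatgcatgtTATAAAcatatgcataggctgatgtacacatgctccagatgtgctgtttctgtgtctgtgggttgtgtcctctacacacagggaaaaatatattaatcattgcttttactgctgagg

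The less common fibrillar collagens varied. Col27a1, a fibrillar collagen of cartilage and other tissues, had 3.95, 3.57 and 3.85 FPKM in libraries labelled BKO, against 5.77, 6.24 and 5.56 FPKM in libraries labelled FF, and fell by 0.57 ± 0.08 (adjusted p = 0.00284). Its call was lost with own-read scaling, at -0.20 (adjusted p = 0.0651), where Col11a2 passed at 0.60 (adjusted p = 0.00207). Col11a2, which is at home in cartilage, had 4.42, 4.53 and 4.28 FPKM in libraries labelled BKO, just above the 4.21, 3.51 and 3.33 FPKM in libraries labelled FF, and its difference of 0.24 ± 0.10 did not pass (adjusted p = 0.105). Type V collagen regulates the width of type I fibrils. Its genes Col5a1, Col5a2 and Col5a3 were below the filter, at 0.62 to 1.01, 0.745 to 0.945 and 0.659 to 0.759 FPKM in libraries labelled BKO, and at 0.241 to 0.538, 0.606 to 0.902 and 0.592 to 0.844 FPKM in libraries labelled FF. The groups did not overlap for Col5a1 but did for the other two. Col11a1, Col24a1 and Col2a1 had 32, 15 and 7 reads over the libraries labelled BKO and 9, 8 and 8 over the libraries labelled FF.

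Markers of stellate cells, fibroblasts and pericytes were split. Of 11 tested, 4 fell, 3 rose and 4 did not pass, against 17.2% lower and 16.9% higher over all genes tested. The 15 listed genes came to 79.3, 88.1 and 85.6 FPKM in libraries labelled BKO, against 127.2, 143.4 and 135.6 FPKM in libraries labelled FF. Rgs5 made up most of these sums, at means of 49.4 FPKM in libraries labelled BKO and 95.7 FPKM in libraries labelled FF. The sums therefore chiefly follow that gene and not the list as a whole. The pericyte genes Rgs5 and Pdgfrb fell by 0.95 ± 0.07 and 0.52 ± 0.11 (adjusted p = 0.000264 and 0.0144, the call of Pdgfrb being lost without FF replicate 3, adjusted p = 0.0529). The fibroblast proteoglycans Dcn and Lum rose by 1.36 ± 0.20 and 1.25 ± 0.24 (adjusted p = 0.00344 and 0.00981). Thy1 rose by 1.06 ± 0.24 (limma adjusted p = 0.0159), and Dpt did not pass at 0.23 ± 0.27 (adjusted p = 0.555). Below the filter, Pdgfra was higher and Pi16 lower in libraries labelled BKO, each without overlap of the groups. All 9 tested markers of B cells and plasma cells and all 9 of enterocytes rose, against 16.9% of all genes tested. The B-cell and plasma-cell list came to 1194, 1917 and 1484 FPKM in libraries labelled BKO, against 28.2, 12.5 and 20.9 FPKM in libraries labelled FF, and the enterocyte list to 132.8, 706.7 and 375.02 FPKM in libraries labelled BKO, against 54.8, 43.9 and 48.4 FPKM in libraries labelled FF. Both lists were thus higher in each library in which these collagens were higher, and their part in the rise was not tested. None of 4 smooth muscle markers passed, and of 3 mesothelial markers 1 fell, 1 rose and 1 did not pass, with Lrrn4 at 0 reads in all libraries. Over the libraries labelled BKO, Col3a1 had the order of the enterocyte markers within its range of 5.69 to 5.94 FPKM, and Col1a1 and Col1a2 did not. Genes that fell, such as Col4a1 and Hspg2, had that order too, so it is not particular to genes that rose. The share of all genes with that order was not counted.

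Col20a1 differed most among all genes of the set. It encodes a FACIT collagen, a class that sits on the surface of fibrils, and little is known of its function. It had 31.9, 33.03 and 31.8 FPKM in libraries labelled BKO, against 2.46, 3.11 and 2.08 FPKM in libraries labelled FF, or 12.7 times as much on average. In reads this was 3421, 3321 and 3394 in libraries labelled BKO, against 191, 231 and 159 in libraries labelled FF. It rose by 3.44 ± 0.12 on the log2 scale (SE, limma adjusted p = 2.7e-05), with 3.33 to 3.57 in fits lacking 1 library, all past the threshold. Among all 14497 genes tested it ranked 124 by log2 rise and 19 by p, and 5.14% were called higher with a log2 rise of at least 1. In the libraries labelled BKO it was the second most abundant gene of the set in replicate 2 and the most abundant in replicates 1 and 3.

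Col20a1 (ENSMUSG00000016356) is on chromosome 2 at 180986535 to 181018363, plus strand (GRCm38). The noncoding gene 9230112E08Rik runs into it on the same strand, overlapping by 741 bases, and rose too, at 13.3, 13.5 and 14.6 FPKM in libraries labelled BKO, against 2.68, 2.58 and 2.11 FPKM in libraries labelled FF (log2 difference 2.28 ± 0.10, adjusted p = 4.88e-05). Reads of the shared part cannot be assigned to either gene from this table. Arfgap1, the next gene upstream on that strand, fell by 0.54 ± 0.09 (adjusted p = 0.00673), and Chrna4, the next gene downstream, had 28 reads over the libraries labelled BKO and 33 over the libraries labelled FF. The upstream stretch of Col20a1 is shown for its large rise. It is chr2:180986285-180986534 (GRCm38.p6, plus strand), inside 9230112E08Rik, and held none of the 4 motifs.
Col20a1: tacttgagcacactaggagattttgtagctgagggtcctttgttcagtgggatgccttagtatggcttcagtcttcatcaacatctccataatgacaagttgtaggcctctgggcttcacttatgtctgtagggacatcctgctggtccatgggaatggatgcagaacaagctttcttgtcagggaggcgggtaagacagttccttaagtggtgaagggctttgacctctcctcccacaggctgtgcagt

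Col14a1, another FACIT collagen made by fibroblasts, had 1.84, 1.82 and 1.79 FPKM in libraries labelled BKO, against 0.924, 0.987 and 0.884 FPKM in libraries labelled FF. It rose by 0.70 ± 0.14 (adjusted p = 0.0108), a call lost without BKO replicate 3 (adjusted p = 0.0515). Col9a2, a FACIT chain of cartilage, fell by 0.83 ± 0.17 (adjusted p = 0.0119), with 0.961 to 1.01 FPKM in libraries labelled BKO and 1.70 to 2.65 FPKM in libraries labelled FF. Col16a1 had 1.64 to 2.04 FPKM in libraries labelled BKO and 1.155 to 2.51 FPKM in libraries labelled FF and did not pass (adjusted p = 0.696). Col12a1, Col9a3, Col19a1, Col22a1 and Col9a1 were all below 0.5 FPKM in each library, and Col9a1 had a single read in the series.

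Col13a1, a transmembrane collagen of cell adhesion sites, had 4.91, 5.67 and 5.13 FPKM in libraries labelled BKO, against 9.44, 13.3 and 11.8 FPKM in libraries labelled FF. It fell by 1.05 ± 0.13 (adjusted p = 0.00183), and the call held whichever library was left out. Over all genes tested, 2.65% were called lower with a fall of at least 1. With own-read scaling Col13a1 fell by 0.67 and Col9a2 by 0.53. The other transmembrane collagens Col23a1, Col25a1 and Col17a1 were below the filter, with 86, 116 and 11 reads over the libraries labelled BKO and 23, 68 and 1 over the libraries labelled FF. The Col13a1 upstream stretch, shown for this fall, is chr10:61979109-61979358 (GRCm38.p6, minus strand) and held 1 TATA box. That match begins 237 bases upstream of the annotated start and describes letters only.
Col13a1: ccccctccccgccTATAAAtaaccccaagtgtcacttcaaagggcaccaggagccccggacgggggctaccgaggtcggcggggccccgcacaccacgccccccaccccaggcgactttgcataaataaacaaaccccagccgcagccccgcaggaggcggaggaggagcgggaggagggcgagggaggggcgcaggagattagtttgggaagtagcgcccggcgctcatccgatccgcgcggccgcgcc

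Collagen VI forms beaded microfibrils next to basement membranes, and its classical trimer joins the chains of Col6a1, Col6a2 and Col6a3. Col6a3 had 0.577, 0.757 and 0.681 FPKM in libraries labelled BKO, against 1.497, 2.99 and 1.87 FPKM in libraries labelled FF, and fell by 1.12 ± 0.24 (adjusted p = 0.0137). The call held whichever library was left out. Col6a1 had 3.76, 5.13 and 4.17 FPKM in libraries labelled BKO, against 2.78, 4.31 and 3.14 FPKM in libraries labelled FF, and did not pass at 0.32 ± 0.17 (adjusted p = 0.192). It did with the replicate number as a block, at an adjusted p of 0.0425. With own-read scaling both Col6a1 and Col6a2 passed, at 0.68 and 0.56 (adjusted p = 0.0171 and 0.0225). Col6a2 had 1.47, 1.85 and 2.02 FPKM in libraries labelled BKO, against 1.37, 1.59 and 1.28 FPKM in libraries labelled FF, and did not pass (adjusted p = 0.248). The Col6a3 to Col6a1 ratio was 0.154, 0.148 and 0.163 in libraries labelled BKO, against 0.539, 0.693 and 0.598 in libraries labelled FF, while the Col6a1 to Col6a2 ratio was 2.06 to 2.77 in libraries labelled BKO and 2.03 to 2.72 in libraries labelled FF, so the groups overlapped.

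Col6a6, a chain that resembles Col6a3 in its domains, was the most abundant of the collagen VI genes. It had 7.23, 7.08 and 7.40 FPKM in libraries labelled BKO, against 11.1, 8.42 and 10.9 FPKM in libraries labelled FF. Its fall of 0.45 ± 0.11 (adjusted p = 0.0229) was lost in 5 of 6 fits lacking 1 library, all but that without FF replicate 2 (adjusted p = 0.0545 to 0.0766), and with own-read scaling it was -0.07 (adjusted p = 0.614). Col6a4, a related chain, was below the filter, at 0.163, 0.66 and 0.328 FPKM in libraries labelled BKO, against 0.00775, 0.0406 and 0.0553 FPKM in libraries labelled FF. Over the libraries labelled BKO it had the order of the enterocyte markers, highest in replicate 2 and lowest in replicate 1. Col4a1 and Hspg2, which fell, had that order too. Col6a5, Col26a1 and Col28a1 had 78, 120 and 245 reads over the libraries labelled BKO and 35, 98 and 256 over the libraries labelled FF.

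**Figure D4:**
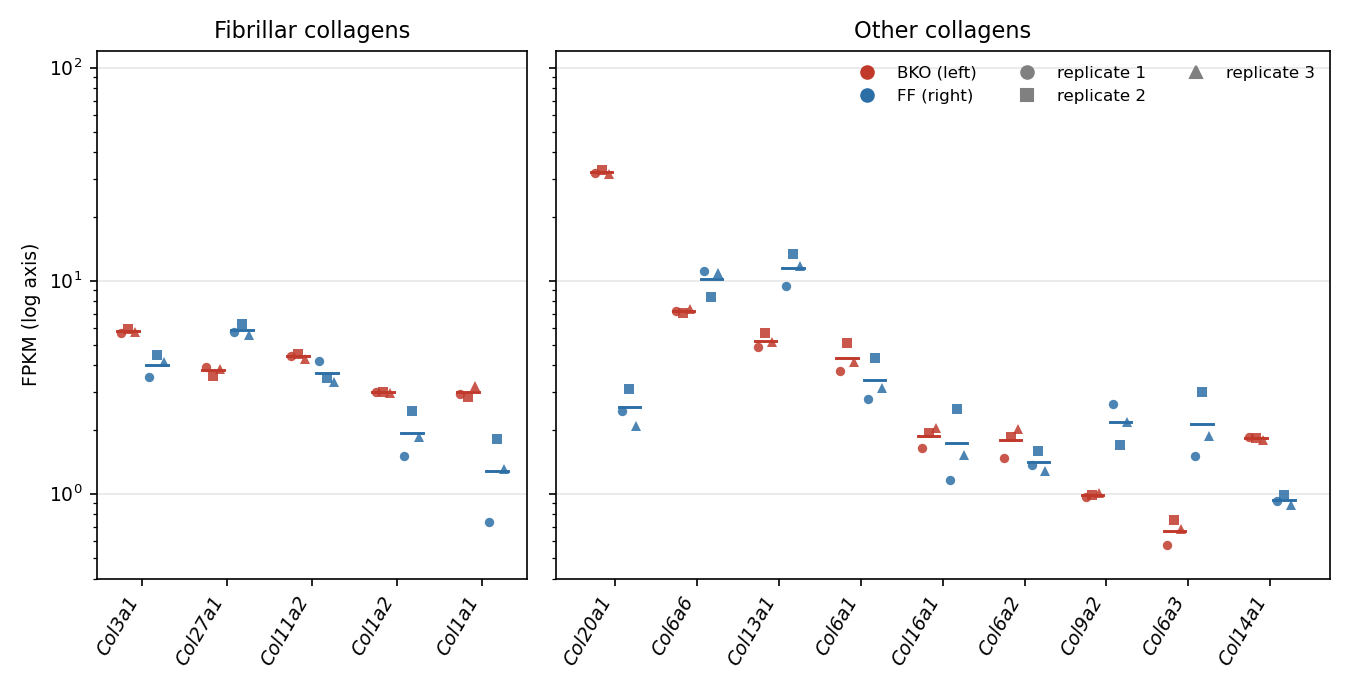
FPKM on a log axis of the tested fibrillar collagens (left panel) and other collagens (right panel); red marks on the left are libraries labelled BKO, blue marks on the right are libraries labelled FF, shapes give the replicate and short lines the group means. Col20a1 sits near 32 FPKM in libraries labelled BKO and near 2.5 FPKM in libraries labelled FF, and Col6a3 and Col13a1 lie lower in all libraries labelled BKO.

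Type VIII collagen is a short-chain network collagen known from vessel walls and from Descemet's membrane of the cornea. Its genes were below the filter. Col8a2 had 1.28, 0.672 and 1.01 FPKM in libraries labelled BKO, against 0.25, 0.0463 and 0.105 FPKM in libraries labelled FF, and Col8a1 had 0.723, 0.831 and 0.632 FPKM in libraries labelled BKO, against 0.246, 0.285 and 0.316 FPKM in libraries labelled FF. In the fit with no filter both rose, by 1.22 for Col8a2 and 0.65 for Col8a1 (adjusted p = 0.02 and 0.0436). Col7a1 of anchoring fibrils had 0.415 to 0.492 FPKM in libraries labelled BKO and 0.437 to 0.604 FPKM in libraries labelled FF, and Col10a1 of growth-plate cartilage had 18 reads over the libraries labelled BKO and 4 over the libraries labelled FF.

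**Figure D5:**
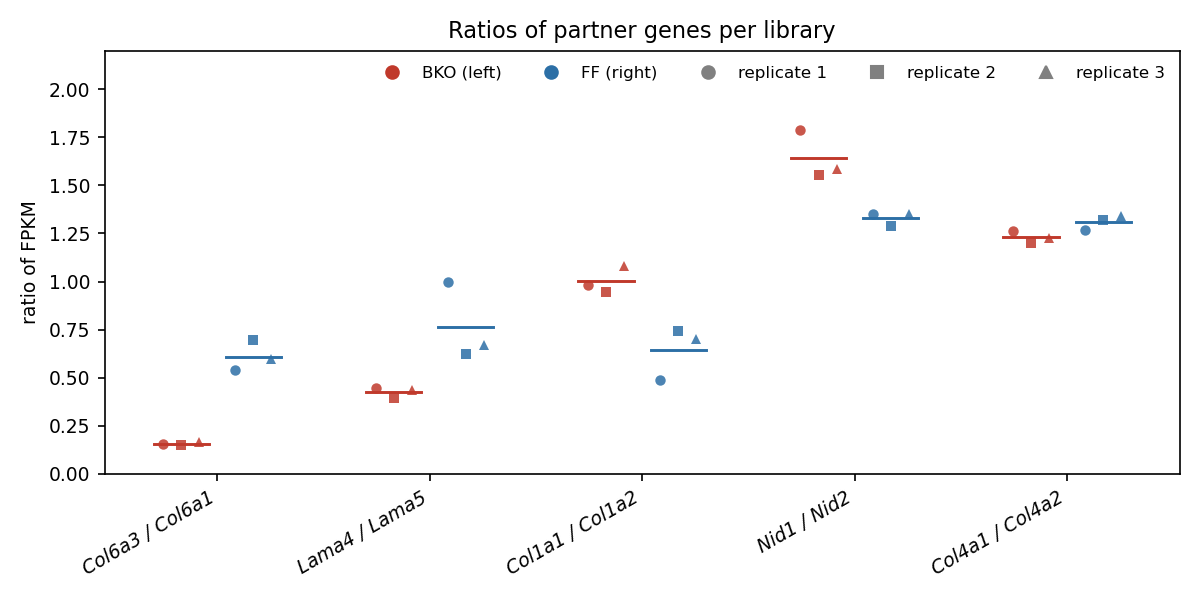
Ratio of FPKM between partner genes in each library; red marks on the left are libraries labelled BKO, blue marks on the right are libraries labelled FF, shapes give the replicate and lines the group means. Col6a3 to Col6a1 stays near 0.15 in libraries labelled BKO and above 0.53 in libraries labelled FF while Col4a1 to Col4a2 lies between 1.20 and 1.34 in all libraries.

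Genes that process, bind or break down these proteins were described from lists, whose counts stand against 17.2% lower and 16.9% higher, or 34.0% in either direction, over all genes tested. Of 20 tested genes for collagen biosynthesis and crosslinking, 6 fell, 2 rose and 12 did not pass, with a median log2 difference of -0.14. Bmp1, the procollagen C-proteinase, fell by 0.79 ± 0.09 (SE, adjusted p = 0.00125). Serpinh1, the collagen chaperone HSP47, fell by 0.57 ± 0.17, Loxl2, a lysyl oxidase that crosslinks type IV collagen, by 0.56 ± 0.16 and Plod1, a lysyl hydroxylase, by 0.50 ± 0.08 (adjusted p = 0.0444, 0.0386 and 0.00436). Of 12 tested receptors 2 fell, 3 rose and 7 did not pass, with a median of 0.11. Dag1, the laminin receptor dystroglycan, rose by 0.77 ± 0.07, with 19.9 ± 0.807 FPKM in libraries labelled BKO and 11.5 ± 0.623 FPKM in libraries labelled FF (SD, n = 3 each, limma adjusted p = 0.000629). Bcam, a laminin α5 receptor, fell by 0.64 ± 0.13, Itga1, an integrin chain for collagen, fell by 0.52 ± 0.14, and Ddr1, a collagen receptor kinase, rose by 0.27 ± 0.07 (adjusted p = 0.0106, 0.0324 and 0.0217).

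Of 9 other basement membrane proteins tested, Sparc, which binds type IV collagen, fell by 0.59 ± 0.07 (adjusted p = 0.00173) and 8 did not pass, with a median of 0.09. Of 10 interstitial matrix genes 3 rose, 0 fell and 7 did not pass, with a median of 0.38. Those were Dcn and Lum, given above, and Fn1, the fibronectin gene, at 0.809, 2.94 and 1.68 FPKM in libraries labelled BKO, against 0.192, 0.586 and 0.219 FPKM in libraries labelled FF (log2 difference 1.39 ± 0.40, adjusted p = 0.0381). Of 9 proteases and inhibitors 2 fell, 1 rose and 6 did not pass, with a median of 0.08. Adamts1 and the inhibitor Timp3 fell by 0.91 ± 0.07 and 0.87 ± 0.19, and Ctsk, the collagen-degrading cathepsin K, rose by 0.65 ± 0.18 (adjusted p = 0.000295, 0.0155 and 0.0352). The calls of Serpinh1 and Itga1 were lost when any library but BKO replicate 2 was left out (adjusted p up to 0.13 and 0.101), and that of Ctsk when any but FF replicate 2 was (up to 0.0912). The call of Loxl2 was lost without BKO replicate 2 or 3 or FF replicate 2 or 3 (up to 0.108), that of Fn1 without BKO replicate 2 or 3 or FF replicate 1 or 3 (up to 0.114), that of Ddr1 without BKO replicate 3 or any FF library (up to 0.0625), and that of Timp3 without FF replicate 3 (0.0554). With own-read scaling the calls of Serpinh1, Loxl2, Plod1, Bcam, Itga1, Sparc and Timp3 were lost, at -0.48 to -0.13. Fn1 had the order of the enterocyte markers over the libraries labelled BKO, as did Col4a1 and Hspg2, which fell.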

How the data were processed

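Total RNA of pancreatic islets was sequenced in 6 Illumina libraries, per the labels' protocols. The submitters' processing notes name GRCm38 at patch 6, DESeq2 1.16.1, HISAT2 2.0.5 and featureCounts 1.5.0-p3 without their roles. No source used here gives settings or strandedness. The authors deposited FPKM values for 54556 genes with gene lengths and coordinates, and 0 columns of sample values were left aside. Each library's FPKM times gene length are multiples of a constant (100% within 0.1 of a whole number of reads), which gave the reads.

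Groups and replicate numbers come from the titles. Median-of-ratios factors were 1 in every library. Genes with a mean of at least 1 FPKM were fitted with limma 3.58.1 in R 4.3.3 (variance trend, two-sided) on log2(FPKM + 0.5), with Benjamini-Hochberg adjusted p under 0.05 over all 14497 genes. Differences on that scale understate changes of low genes. The method was also run on simulated counts, drawn independently with the same spread setting for all genes. That simulation held no shifts shared by the genes of a library, so it does not cover such shifts here. Named genes are all members with a mean of at least 1 FPKM, with per-library values for those at 5 FPKM or with a called log2 difference of at least 1, 16 core genes fixed by name, and up to 4 called genes of the largest difference per pathway list. Members and lists were chosen with earlier results of these data known. One tested basement membrane gene is counted but not reported here. Low members were named after their values were seen. Alternatives were other pseudocounts, filters and scalings, voom, a replicate block and left-out libraries. Sequences are from RefSeq tables of GRCm38.p6. A count of 0 reads allows up to 3, and floors and read numbers cover counting error only.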

Additional observations from a re-analysis of the deposited data

How the results depend on the processing

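The number of basement membrane genes called lower was 11 and ranged from 7 (without FF replicate 3) to 10 in the fits lacking 1 library. It was 8 with no filter or a filter at 5 FPKM, 11 with other pseudocounts, quantile normalization and voom on recovered reads (an alternative chosen after seeing the data), 4 with own-read scaling and 4 without BKO replicates 2 and 3, the libraries with the most enterocyte signal. The 4 called without those libraries were Col15a1, Lama3, Lama4 and Lamb1. The count of basement membrane genes called higher, 1, became 0 with a filter at 5 FPKM and without BKO replicates 2 and 3. Fibrillar genes called higher, 3, became 0 in both of these and ranged from 1 (without BKO replicate 3) to 3 when 1 library was left out. The fibrillar gene called lower became 0 in both and with own-read scaling. Other collagens called lower, 4, became 2 with a filter at 5 FPKM and 0 without BKO replicates 2 and 3. Other collagens called higher, 2, became 4 with no filter and with own-read scaling, 1 with a filter at 5 FPKM, and ranged from 1 (without BKO replicate 3) to 2 when 1 library was left out. A filter at 5 FPKM leaves fewer members, and leaving out 2 libraries leaves 1 on that side, so that the spread comes from FF libraries alone. Other causes were not tested.

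All genes called, 4935, became 3090 with a filter at 5 FPKM, 8352 with own-read scaling (709 lower, 7643 higher, against 2489 and 2446) and 1317 without BKO replicates 2 and 3, and ranged from 2780 (without BKO replicate 3) to 4236 when 1 library was left out. The log2 ratio of mean summed levels moved with own-read scaling to -0.23 from -0.63 for basement membrane genes, to 0.67 from 0.26 for fibrillar genes and to 1.04 from 0.64 for other collagens. In the deposited scaling the higher sum of other collagens came from Col20a1. Without that gene the sum was lower, at 27.0, 30.1 and 29.0 FPKM in libraries labelled BKO, against 34.6, 38.8 and 36.5 FPKM in libraries labelled FF. Of the 22 called members, 13 passed whichever library was left out, and all 22 kept their sign in those fits. Signs turned for genes near 0. With own-read scaling Agrn came to 0.14 and Lamc1 to 0.0241. With quantile normalization Col4a5 came to -0.10, Col18a1 to -0.0786 and Col16a1 to -0.0038. Without BKO replicates 2 and 3 Col18a1 came to -0.0581 and Col16a1 to -0.0114. When 1 library was left out Col4a5 ranged from -0.0563 to 0.28, Col18a1 from -0.0883 to 0.28, Col16a1 from -0.0605 to 0.37 and Agrn from -0.52 to 0.0150.

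Replicate numbers are shared between the groups' titles, but nothing says that they pair libraries, and same-numbered libraries deviated together only weakly (correlations of 0.081, 0.075 and 0.042 across genes), although each library correlated best with its own number. With the replicate number as a block, 12 basement membrane genes were lower and 1 higher, 3 fibrillar genes were higher and 1 lower, 3 other collagens were higher and 4 lower, and 4659 genes were called in all. edgeR and DESeq2 were listed as alternatives and were not run, and voom was run on the recovered reads.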
